A study of Mus musculus with 32 samples.

Results

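The 44 genes described here encode proteins of the presynaptic terminal and proteins that most neurons share. They were taken by symbol from a list of known presynaptic and pan-neuronal genes, and all 44 were measured, each by 1 probe, among 19505 genes with a symbol on the arrays. The arrays came from mice with photothrombosis, a light-induced clotting of vessels after a photosensitive dye is given, placed either in the spinal cord or in the cerebrum. The 8 groups of 4 arrays were spinal day 1, day 3 and day 7 after photothrombosis with spinal control, and cerebral day 1, day 3 and day 7 with cerebral control. All animals were male wild-type C57BL/6J mice of 6 to 12 weeks and 20 to 25 g, so no group carried an altered allele. The labels do not say whether controls had surgery, nor that each array came from a separate animal, so p-values reflect spread among arrays that may be technical. Sample titles of each group are numbered in a separate range. Those of spinal day 7 carry another prefix letter than all others, and those of the 8 controls lie together, apart from every injured group. If that numbering follows batches, group and batch cannot be told apart.

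At a presynaptic terminal, synaptic vesicles are filled with transmitter, held at the active zone and primed by scaffold and priming proteins. Calcium that enters through voltage-gated channels is sensed by synaptotagmins, SNARE proteins on vesicle and plasma membrane join to fuse them, and endocytic proteins recover the vesicle membrane. Pan-neuronal proteins such as NeuN (the product of Rbfox3), class III beta-tubulin (Tubb3) and MAP2 (Map2) are used to mark neurons in all regions of the nervous system, and some of the presynaptic families divide their members between brain and cord.

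Values are deposited values centred per probe, on a scale taken as log2 from their range since the base is not stated, so 0 is roughly a probe's own median over the controls and day 1 arrays and 2 probes cannot be set against each other in level. Day 3 and day 7 arrays had been centred apart, and their offset was rebuilt against the 8 controls before any comparison. Differences across these parts (day 3 or day 7 against control, day 7 against day 1) had to exceed a bound on that offset, with a median of 0.20 for the 44 genes at day 3 and 0.26 at day 7. All other differences were tested against 0. A gene was called when its adjusted p-value was under 0.05. The p-value was computed from limma's difference and moderated standard error, and adjusted by Benjamini-Hochberg over 19505 genes. Differences carry their standard error (SE, n = 4 arrays per group), and the median residual SD of a gene was 0.185.

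The tissue labels were borne out by the controls. Of 11 trunk Hox genes, 10 were higher in spinal than in cerebral controls, and all 7 genes of cortical excitatory neurons were lower, with a median difference of -4.06. In the spinal arrays, genes from outside the cord varied within a group. The mean of 9 genes of sensory root neurons (among them Avil, Scn10a and Calca) was 0.05, 3.93, 0.04 and 3.07 in the 4 spinal controls, and that of 12 skeletal muscle genes ran from 0.20 to 3.79 there. Fibroblast genes ran from -0.91 to 1.78 and Schwann cell genes from -0.18 to 1.31 in the same controls. Cerebral arrays varied too. In cerebral controls the mean of 9 genes of thalamus and subcortical neurons spanned -0.99 to 0.33. That of 8 pituitary and hypothalamus genes spanned 0.66 to 1.62 there. Cerebral day 1 arrays had -0.04 to 0.44 for this last list, and cerebral day 7 arrays 0.46 to 2.08. Unc13c split the cerebral controls, with -0.08 and -0.15 in replicates 1 and 2 and -1.11 and -1.03 in replicates 3 and 4. The part of these lists in the results was not tested. Spinal day 3 replicate 1 had the lowest array weight, 0.225. The SD over genes ran from 0.79 to 0.91 in the spinal day 7 arrays and from 0.30 to 0.33 in the cerebral day 1 arrays.

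At day 7 after spinal photothrombosis, 35 of the 44 genes (79.5%) were lower than in spinal controls and 0 were higher, while 12.9% of all genes were lower and 13.1% higher (26.0% called in all). After cerebral photothrombosis the count at day 7 was 6 lower and 0 higher of 44, where 1.03% of all genes were lower and 3.06% higher (4.08% in all). The median difference over the 44 genes was -1.14 in the spinal cord, where that of all genes was -0.10, and -0.24 in the cerebrum, where that of all genes was -0.05. With quantile normalisation the spinal median was -0.71, and in the values as deposited the cerebral median was -0.09. In the cord, all 4 day 7 arrays lay below all 4 controls for 39 of 44 genes, as for 24.8% of all genes, and above for 0 of 44, as for 19.0%. In the cerebrum the day 7 arrays lay below for 22 of 44 genes and 12.9% of all genes, and above for 5 of 44 and 14%. These overlap counts use the rebuilt offset as it stands, without its bound. All injured groups of a tissue are set against the same 4 controls. In whole tissue, fewer neurons, less RNA per neuron and a larger share of RNA from other cells cannot be told apart.

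**Figure D1:**
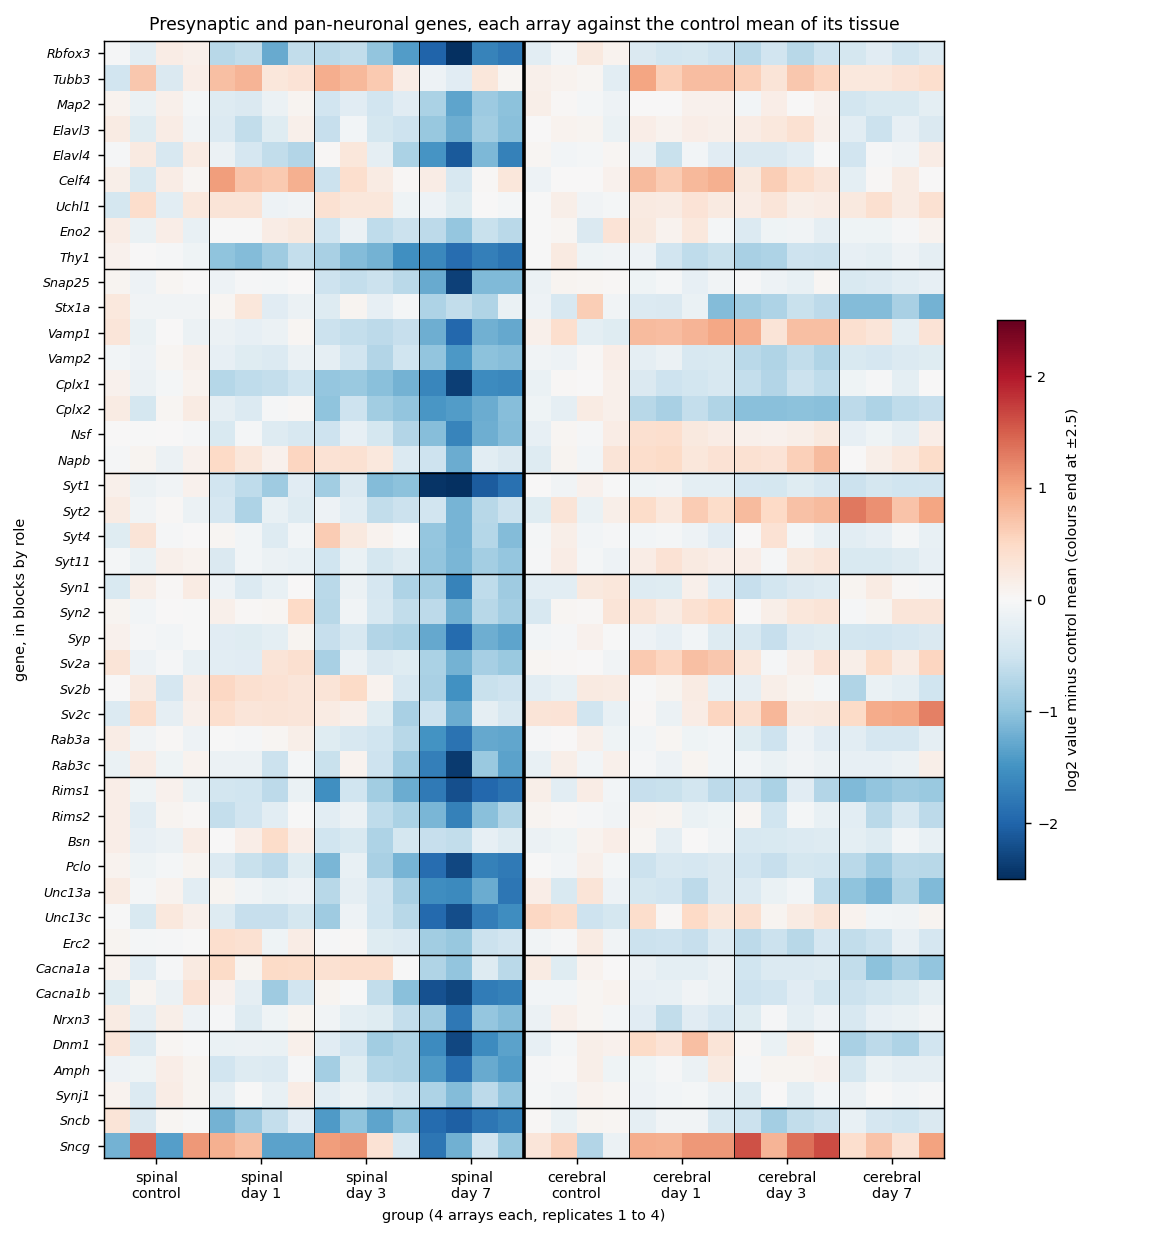
Log2 value of each of the 44 genes (rows, in blocks by role) in each of the 32 arrays (columns, replicates 1 to 4 of each group), minus the mean of the 4 control arrays of the same tissue, with colours ending at 2.5 either way. The spinal day 7 columns are blue in nearly every row, with a median over genes of -1.03, -1.55, -0.95 and -1.07 in replicates 1 to 4, while cerebral columns hold both colours.

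Among the synaptotagmins, which sense calcium or act in vesicle traffic, the largest fall of all 44 genes at spinal day 7 was that of Syt1, the fast calcium sensor of forebrain synapses. Syt1 stood at -3.39, -3.99, -3.02 and -2.80 in spinal day 7 arrays, against -0.81, -1.08, -1.03 and -0.84 in spinal controls. The groups did not overlap and lay far apart. The difference was -2.36 ± 0.16 (adjusted p = 3.44e-12), which is 5.14-fold lower. Its relatives Syt4 and Syt11, which take part in the traffic of vesicles without acting as fast calcium sensors, both fell by 0.98. Syt2, the fast calcium sensor that predominates in hindbrain and cord, had 0.81, 0.13, 0.60 and 0.74 in spinal day 7 arrays, against 1.48, 1.20, 1.31 and 1.14 in spinal controls. All 4 injured arrays were below all controls, but the difference of -0.71 ± 0.16 did not pass, because the offset of this probe was known only within a wide range and its bound was 1.21.

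The pan-neuronal genes divided. Rbfox3 had -2.26, -2.78, -1.93 and -2.04 in spinal day 7 arrays, against -0.28, -0.52, -0.06 and -0.13 in spinal controls. Every injured array was at least 1 log2 unit below every control, and the difference was -2.00 ± 0.16 (adjusted p = 2.00e-10), or 4.01-fold lower. Thy1, a surface glycoprotein of projection neurons, fell by 1.76, Elavl4 by 1.60, Elavl3 (both RNA-binding proteins of neurons) by 1.02, Map2 by 1.01 and Eno2, the neuronal enolase, by 0.71. The other 3 of 9 did not pass. Tubb3 differed by -0.02 ± 0.18, Celf4, a neuronal RNA-binding protein, by 0.02 ± 0.16, and Uchl1, the abundant neuronal deubiquitinating enzyme, by -0.12 ± 0.14. Tubb3 and Uchl1 were 2 of the genes whose spinal controls spread with the sensory root neuron genes: Tubb3 had 0.95 and 0.43 in control replicates 2 and 4, and -0.22 and -0.10 in replicates 1 and 3. Set against control replicates 1 and 3 alone, an alternative added after the values were seen, the day 7 differences were 0.41 for Tubb3 and 0.24 for Uchl1 and did not pass either.

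Of the 8 SNARE proteins, complexins and recycling factors, 6 fell at spinal day 7. The plasma membrane SNARE Snap25 fell by 1.45 and the vesicle SNAREs Vamp1 and Vamp2 by 1.42 and 1.13. Complexins clamp and then release the assembled SNARE complex, and Cplx1, the form of cord and hindbrain, fell by 1.80 while Cplx2, the form of forebrain, fell by 1.29. Nsf, the ATPase that takes used SNARE complexes apart, fell by 1.26. Stx1a, the other plasma membrane SNARE, and Napb, the cofactor of NSF in neurons, had differences of -0.57 ± 0.18 and -0.60 ± 0.17 that did not pass, although for both all 4 injured arrays lay below all controls.

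Vesicle proteins followed the same direction, with 7 of 8 lower. Rab3c and Rab3a, small GTPases of the vesicle surface, fell by 1.60 and 1.48, and synaptophysin (Syp), a common marker of vesicles, fell by 1.43. Syn1 and Syn2, the synapsins that tether vesicles in reserve, fell by 1.02 and 0.84. Of the SV2 glycoproteins, Sv2a fell by 0.93 and Sv2b by 0.85, whereas Sv2c, with a bound of 1.16, differed by -0.59 ± 0.23 and did not pass.

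Active zone genes held some of the largest differences. Rims1, a scaffold that links vesicles to calcium channels, had -2.19, -2.62, -2.40 and -2.28 in spinal day 7 arrays, against -0.26, -0.54, -0.32 and -0.60 in spinal controls. No array of one group came near the other, and the difference was -1.94 ± 0.16 (adjusted p = 1.38e-10). Pclo (piccolo) fell by 1.91, the priming factors Unc13c and Unc13a (Munc13 proteins) by 1.86 and 1.55, Rims2 by 1.16 and Erc2 by 0.71. Bassoon (Bsn), the large scaffold paired with piccolo, differed by -0.43 ± 0.12 and did not pass.

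Calcium channels, neurexin and endocytic genes all fell, 3 of 3 in each set. Cacna1b, the pore of the N-type channel, had -2.61, -2.74, -2.19 and -2.13 in spinal day 7 arrays, against -0.74, -0.37, -0.58 and -0.07 in spinal controls. The groups were separated by more than 1 log2 unit, and the difference was -1.98 ± 0.19 (adjusted p = 2.04e-08). Cacna1a, the pore of the P/Q-type channel, fell by only 0.68, and the adhesion receptor Nrxn3 by 1.18. Dynamin 1 (Dnm1), which pinches vesicles off, fell by 1.69, amphiphysin (Amph), which recruits dynamin to the neck, by 1.49, and the lipid phosphatase Synj1, which strips the coat, by 0.87. Of the synucleins, small proteins that bind vesicle membranes, Sncb fell by 1.86. Sncg, which is high in sensory and motor neurons, differed by -1.11 ± 0.50 and did not pass. Against spinal control replicates 1 and 3 alone the sign turned (0.17), and it did not pass either. Without spinal day 7 replicate 2, in which all 44 genes were below the control mean, 32 of 44 genes were called, and Eno2, Sv2b and Cacna1a (adjusted p = 0.0590) were the 3 lost. Vamp1 was not called in the values as deposited (-0.27, adjusted p = 0.188), and quantile normalisation on top left 24 genes called, 23 lower and 1 higher.

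**Figure D2:**
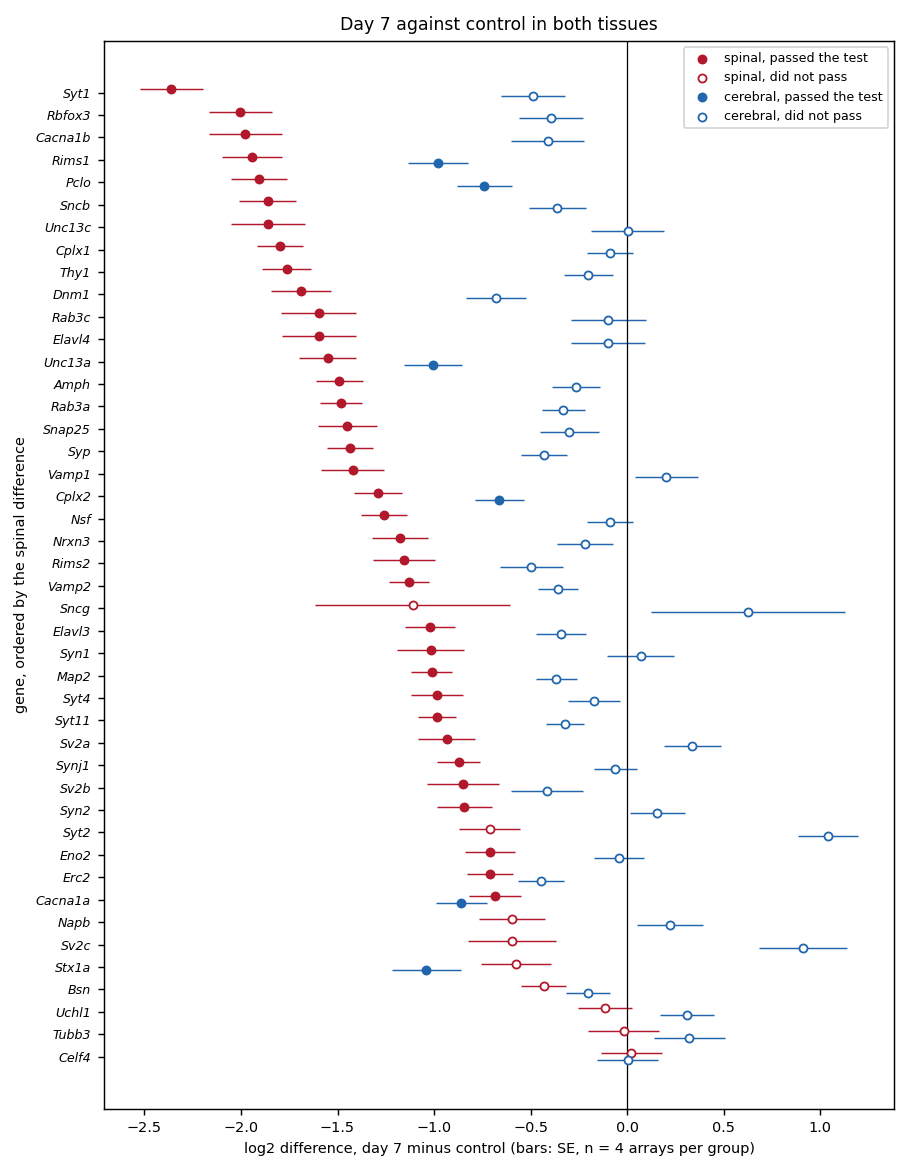
Log2 difference between day 7 and control for each of the 44 genes in the spinal cord (red) and the cerebrum (blue), with bars of 1 SE (n = 4 arrays per group), ordered by the spinal difference. Filled points passed the test against the bound. The spinal points run from -2.36 (Syt1) to 0.02 (Celf4), and of the cerebral points only 6 are filled.

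Genes of other cells moved with these differences in the same arrays. At spinal day 7, 8 of 9 genes of monocytes and macrophages were higher, with a mean over the list of 3.87 to 4.38 in spinal day 7 arrays and -0.49 to 0.36 in spinal controls. Of 6 fibroblast genes, 5 were higher (3.63 to 4.33, against -0.91 to 1.78 in controls), and 5 of 9 microglia genes were higher. Of 12 skeletal muscle genes, 7 were lower, and of 12 myelin genes 3. The myelin list mean was 0.38 to 0.67 in spinal day 7 arrays and 1.02 to 1.43 in spinal controls. Astrocyte means were 0.49 to 0.59, against 0.02 to 0.46 in controls, and endothelial means 0.49 to 0.60, against -0.05 to 0.19. Sensory root neuron means overlapped, at -0.25 to 1.72 in spinal day 7 arrays and 0.04 to 3.93 in spinal controls. The trunk Hox genes were lower in 7 of 11, with a list mean of 0.64 to 0.77 in spinal day 7 arrays and 1.26 to 1.84 in spinal controls. Of 8 genes of inhibitory neurons, 5 were lower. The list mean of motor neuron genes overlapped, at 0.43 to 1.02 in spinal day 7 arrays and 0.57 to 1.54 in spinal controls. Centred values give no level, so whether a marker was near 0 could not be read. The part of these lists in the falls of the neuronal genes was not tested.

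**Figure D3:**
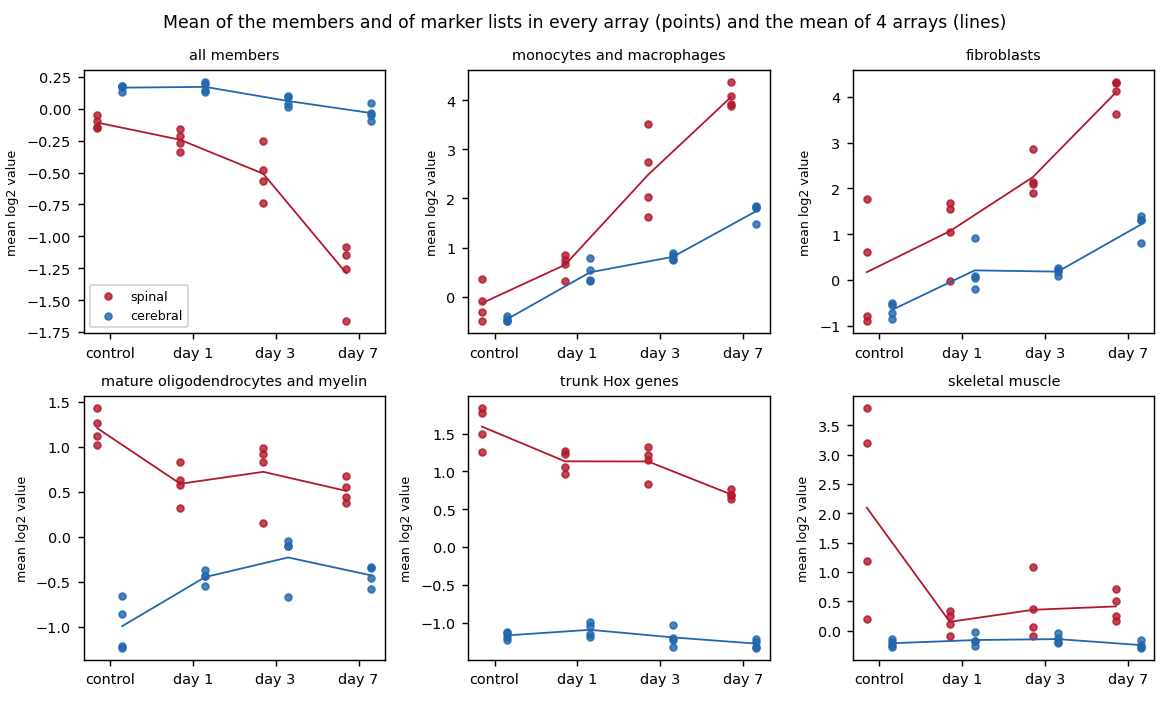
Mean log2 value of the 44 genes and of 5 marker lists in every array (points) and mean of 4 arrays (lines), by time after photothrombosis, in spinal cord (red) and cerebrum (blue). The mean of the 44 genes was -1.67 to -1.08 in spinal day 7 arrays and -0.15 to -0.05 in spinal controls, while macrophage and fibroblast means ran the other way.

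The 250 bases before the annotated start were read for the genes with an entry in the RefSeq promoter table of GRCm38.p6, which was so for 37 of the 44. The letters searched were those of the 2 blocks of the RE1 element, the site bound by REST, a repressor of neuronal genes in other cells: CAGCACC and GGACAG, on either strand. Syt1 is shown as the gene with the largest fall, Syn1 as a gene that fell and holds the left block, and Tubb3 as a gene that holds the left block and did not pass. Capitals mark the letters found, and each line reads 5′ to 3′ on the gene's own strand.
Syt1 (chr10:109010976-109011225, minus strand): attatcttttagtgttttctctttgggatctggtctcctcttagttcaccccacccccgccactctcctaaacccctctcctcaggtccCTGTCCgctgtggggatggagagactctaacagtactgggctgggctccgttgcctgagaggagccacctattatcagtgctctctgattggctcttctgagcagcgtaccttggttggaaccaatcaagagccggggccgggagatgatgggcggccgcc
Syn1 (chrX:20920919-20921168, minus strand): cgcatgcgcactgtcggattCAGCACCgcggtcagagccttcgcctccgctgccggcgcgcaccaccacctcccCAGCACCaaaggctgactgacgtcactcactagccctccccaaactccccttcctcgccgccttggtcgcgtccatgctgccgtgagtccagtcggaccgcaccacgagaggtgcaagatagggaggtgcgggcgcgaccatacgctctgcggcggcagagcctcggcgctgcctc
Tubb3 (chr8:123411303-123411552, plus strand): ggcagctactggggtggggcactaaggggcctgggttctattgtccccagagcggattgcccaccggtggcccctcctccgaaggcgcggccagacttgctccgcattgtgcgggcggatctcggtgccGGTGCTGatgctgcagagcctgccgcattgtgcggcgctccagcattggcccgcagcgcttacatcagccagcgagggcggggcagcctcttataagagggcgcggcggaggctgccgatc
The left block was found in 3 of the 37 genes (8.11%), Syn1, Tubb3 and Sv2c, and in 6.56% of 27025 genes with such a window. The right block was found in 7 of 37 (18.9%) and in 21.0% of all genes. Both blocks spaced by 2 bases, CAGCACCNNGGACAG, were in 0 of 37 windows and in 0.0370% of all genes. Only exact letters were counted, so near matches were left out. In the Syn1 window the first left block is followed, after 2 bases, by letters that differ from the right block in a single place. A match of letters is a description of these windows and not a site, and lack of an exact match does not show that a site is absent. Syt1 has a second annotated start whose window holds neither block.

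At spinal day 3, 15 of 44 genes (34.1%) were lower and 0 higher, where 7.93% of all genes were lower and 9.28% higher (17.2% in all). All 4 arrays lay below all controls for 18 of 44 genes and 14.5% of all genes, and above for 0 of 44 and 11.3%. The median difference was -0.46, against -0.08 over all genes, and -0.31 in the values as deposited. Sncb, beta-synuclein, had -1.20, -0.79, -1.10 and -0.81 in spinal day 3 arrays, against 0.54, -0.14, 0.26 and 0.20 in spinal controls. The groups did not overlap, and Sncb fell by 1.19 (SE 0.15, adjusted p = 3.65e-06). Thy1 had -0.42, -0.68, -0.79 and -1.13 in spinal day 3 arrays, against 0.51, 0.42, 0.37 and 0.29 in spinal controls. It too was lower in every injured array, by 1.15 (SE 0.13, adjusted p = 6.72e-07).

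Rims1 showed how unevenly the day 3 arrays had moved. It had -1.97, -0.92, -1.31 and -1.68 in spinal day 3 arrays, against -0.26, -0.54, -0.32 and -0.60 in spinal controls, so replicate 2 was nearest to the controls and replicate 1 farthest. The difference was -1.04 ± 0.16 (adjusted p = 8.65e-05). The same order did not hold for Cplx1, which had the closely spaced values -0.35, -0.31, -0.43 and -0.57 in spinal day 3 arrays, against 0.72, 0.46, 0.57 and 0.71 in spinal controls, a difference of -1.03 ± 0.12 (adjusted p = 2.25e-06).

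The other genes lower at spinal day 3 were Rbfox3, Snap25, Vamp2, Cplx2, Syt1, Syp, Rab3a, Bsn, Pclo, Dnm1 and Amph, by 0.48 to 0.92. Of these, Snap25, Vamp2, Rab3a, Bsn and Dnm1 lost their call in 3 to 7 of the 8 fits that each left out 1 array, with adjusted p of up to 0.182. Over all 44 genes such fits gave 10 calls (without spinal day 3 replicate 3) to 19 (without spinal day 3 replicate 2), and quantile normalisation gave 7. Against spinal control replicates 1 and 3 alone, 15 genes were lower and 3 higher, namely Tubb3 by 1.06, Sncg by 1.82 and Uchl1 by 0.57. The mean of the sensory root neuron genes was 3.49, 3.81, 2.75 and 1.54 in these spinal day 3 arrays, and 8 of 9 macrophage genes were higher (1.63 to 3.52, against -0.49 to 0.36 in spinal controls). Their part in the result was not tested.

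At spinal day 1, 8 of 44 genes (18.2%) were lower and 3 (6.82%) higher, where 16.1% of all genes were lower and 15.8% higher (31.9% in all), so the share of lower genes was close to that of all genes. All 4 arrays lay below all controls for 8 of 44 genes and 13.4% of all genes, and above for 3 of 44 and 13.3%. Thy1 had -0.60, -0.69, -0.50 and -0.19 in spinal day 1 arrays, against 0.51, 0.42, 0.37 and 0.29 in spinal controls. It was the largest fall, with no overlap, at -0.90 ± 0.13 (adjusted p = 3.24e-06). Rbfox3 had -0.95, -0.87, -1.52 and -0.87 in spinal day 1 arrays, against -0.28, -0.52, -0.06 and -0.13 in spinal controls, with 1 injured array well below the other 3. The difference was -0.80 ± 0.16 (adjusted p = 0.000389).

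Sncb had -0.96, -0.69, -0.38 and -0.07 in spinal day 1 arrays, against 0.54, -0.14, 0.26 and 0.20 in spinal controls. Injured replicate 4 overlapped control replicate 2, and the difference was -0.74 ± 0.15 (adjusted p = 0.000271). The other 5 falls were those of Cplx1 (0.60), Syt1 (0.57), Pclo (0.46), Rims1 (0.45) and Syt2 (0.43). Rises were seen in Celf4, Tubb3 and Cacna1a. Celf4 had -0.73, -1.06, -1.12 and -0.88 in spinal day 1 arrays, against -1.63, -2.14, -1.59 and -1.72 in spinal controls, without overlap and with a difference of 0.82 ± 0.16 (adjusted p = 0.000176). Tubb3 rose by 0.56 and Cacna1a by 0.37, with overlapping arrays. Single arrays decided 5 of these 11 calls: Tubb3, Syt2, Rims1 and Cacna1a were lost in 4 or 5 of the 8 fits without 1 array, and Pclo was lost without spinal day 1 replicate 3 (adjusted p = 0.0535). Against spinal control replicates 1 and 3 alone, Tubb3 was higher by 0.98 and Cacna1a was not called. Uchl1 (0.47) and Sv2b (0.60) were then also called higher, and Elavl3 (-0.48) and Unc13c (-0.61) also lower. The mean of the sensory root neuron genes ran from 0.06 to 2.77 in spinal day 1 arrays and from 0.04 to 3.93 in spinal controls. At spinal day 1 all 12 skeletal muscle genes, 7 of 12 myelin genes and 6 of 11 trunk Hox genes were lower. The part of these lists in the result was not tested.

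Set against spinal day 1 rather than control, spinal day 7 had 38 of 44 genes lower and 0 higher, where 8.78% of all genes were lower and 11.2% higher (20.0% in all). All 4 day 7 arrays lay below all day 1 arrays for 39 of 44 genes and 26.7% of all genes, and above for 0 of 44 and 18.9%. The median difference was -1.0, and all 44 differences were below 0. Syt1 fell by 1.79, Cacna1b by 1.61, Dnm1 by 1.60 and Rab3a by 1.52 over this interval. With quantile normalisation 9 of the 38 were called and the median was -0.49.

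**Figure D4:**
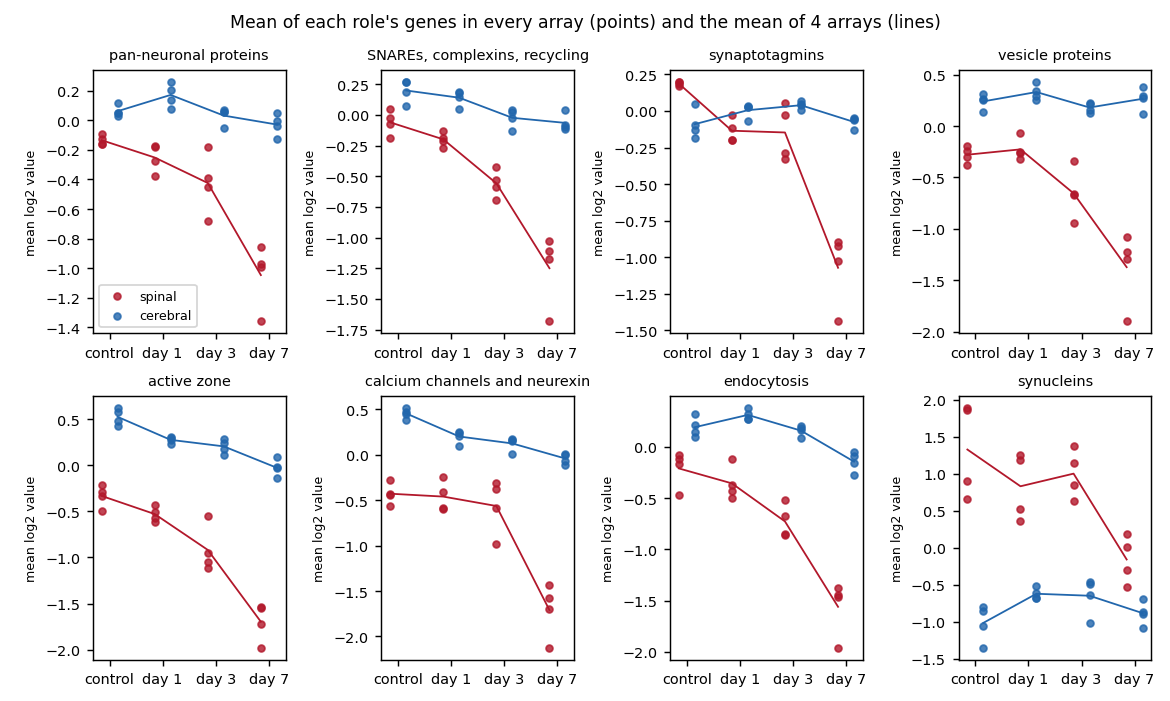
Mean log2 value of the genes of each role in every array (points) and mean of 4 arrays (lines), from control to day 7, in spinal cord (red) and cerebrum (blue). In all 8 roles the lowest spinal mean is that of day 7, while the cerebral means stay within a narrower span, with medians of 0.53, 0.28, 0.21 and -0.03 from control to day 7 for the active zone.

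In the cerebrum at day 1, genes moved both ways: 6 of 44 (13.6%) were higher and 7 (15.9%) lower, where 8.91% of all genes were higher and 8.22% lower (17.1% in all). All 4 arrays lay above all controls for 8 of 44 genes and 12.5% of all genes, and below for 11 of 44 and 11.0%. Vamp1, the vesicle SNARE of cord and brainstem, had -0.94, -0.96, -0.88 and -0.77 in cerebral day 1 arrays, against -1.61, -1.31, -1.98 and -2.03 in cerebral controls. Injured arrays were tightly grouped above all controls, with a difference of 0.85 ± 0.16 (adjusted p = 0.000494). Celf4 had 1.66, 1.5, 1.69 and 1.75 in cerebral day 1 arrays, against 0.73, 0.88, 0.87 and 0.98 in cerebral controls. It was 0.78 ± 0.16 higher without overlap (adjusted p = 0.000776), and the spinal change at day 1 exceeded this by 0.04 ± 0.22, which was not called.

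Tubb3 had 0.22, -0.18, 0.0011 and -0.0011 in cerebral day 1 arrays, against -0.65, -0.69, -0.71 and -1.03 in cerebral controls. All injured arrays were above all controls, with a difference of 0.78 ± 0.18 (adjusted p = 0.00326). Sv2a, Dnm1 and Syt2 rose by 0.66, 0.47 and 0.45. Among the falls, Cplx2 had 0.63, 0.51, 0.72 and 0.56 in cerebral day 1 arrays, against 1.21, 1.08, 1.51 and 1.43 in cerebral controls. That is no overlap and a difference of -0.71 ± 0.13 (adjusted p = 0.000214).

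The active zone held 4 of the 7 cerebral day 1 falls, namely Rims1 (0.56), Erc2 (0.50), Unc13a (0.48) and Pclo (0.43), and the other 2 were Thy1 (0.45) and Cplx1 (0.43). Single arrays decided 5 of the 13 calls. Thy1 was lost without cerebral control replicate 2 or cerebral day 1 replicate 3 (adjusted p up to 0.0574), and Unc13a, Dnm1, Syt2 and Pclo in 3, 4, 5 and 7 of the 8 fits without 1 array. Beside these, 7 of 9 genes of thalamus and subcortical neurons were higher (list mean 0.66 to 0.82 in cerebral day 1 arrays, -0.99 to 0.33 in cerebral controls), and 4 of 7 genes of cortical excitatory neurons were lower (1.33 to 1.38, against 1.74 to 2.24 in controls). Of 12 myelin genes, 7 were higher, and so were 7 of 10 astrocyte genes (0.04 to 0.23, against -0.87 to -0.75 in controls). Microglia genes were higher in 5 of 9 (0.77 to 0.96, against -0.28 to -0.21), endothelial genes in 4 of 8 (0.17 to 0.31, against -0.40 to -0.32) and macrophage genes in 2 of 9 (0.32 to 0.79, against -0.51 to -0.39). The part of these lists in the result was not tested.

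By cerebral day 3, 5 of 44 genes (11.4%) were lower and 0 higher, where 2.08% of all genes were lower and 2.86% higher (4.94% in all). All 4 arrays lay below all controls for 17 of 44 genes and 13% of all genes, and above for 6 of 44 and 12.5%. Cplx2 had 0.27, 0.27, 0.29 and 0.27 in cerebral day 3 arrays, against 1.21, 1.08, 1.51 and 1.43 in cerebral controls. The injured arrays were nearly identical and far below the controls, with a difference of -1.04 ± 0.13 (adjusted p = 2.48e-05). Vamp2 had -0.28, -0.37, -0.22 and -0.37 in cerebral day 3 arrays, against 0.31, 0.27, 0.43 and 0.55 in cerebral controls. It did not overlap and differed by -0.70 ± 0.10 (adjusted p = 0.00114).

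Thy1 had -0.69, -0.65, -0.40 and -0.42 in cerebral day 3 arrays, against 0.11, 0.34, 0.01 and 0.03 in cerebral controls, a difference of -0.66 ± 0.13 without overlap (adjusted p = 0.0143). Cplx1 had -0.62, -0.75, -0.55 and -0.64 in cerebral day 3 arrays, against -0.17, 0.01, -0.01 and 0.12 in cerebral controls, a difference of -0.63 ± 0.12 without overlap (adjusted p = 0.0165). Both complexins were thus among the 5 genes. The fifth, Erc2, fell by 0.57 and lost its call in 7 of 8 fits without 1 array. The calls of Thy1 and Cplx1 rested on single arrays as well: without cerebral day 3 replicate 2 both were lost and 2 genes were left, and without cerebral day 3 replicate 1 or cerebral control replicate 4 there were 3. As deposited, with no offset, 5 genes were higher and 9 lower, with the offset taken as exact 4 were higher and 14 lower, and with quantile normalisation 2 were higher and 10 lower. In the same arrays 3 of 7 genes of cortical excitatory neurons were lower (list mean 0.89 to 1.08 in cerebral day 3 arrays, 1.74 to 2.24 in cerebral controls) and 5 of 9 genes of thalamus and subcortical neurons higher. Macrophage genes were higher in 2 of 9 (0.75 to 0.89, against -0.51 to -0.39 in controls), microglia genes in 3 of 9 (0.68 to 0.94, against -0.28 to -0.21) and astrocyte genes in 2 of 10 (-0.07 to 0.12, against -0.87 to -0.75). The part of these lists in the result was not tested.

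At cerebral day 7 the 6 lower genes (13.6%) were Stx1a, Unc13a, Rims1, Cacna1a, Pclo and Cplx2. Stx1a, the plasma membrane SNARE, had 0.73, 0.73, 1.00 and 0.64 in cerebral day 7 arrays, against 1.69, 1.41, 2.43 and 1.73 in cerebral controls. The controls were spread widely but all above the injured arrays, and the difference was -1.04 ± 0.18 (adjusted p = 0.00379). Unc13a, the main Munc13 priming protein of forebrain, had 0.01, -0.14, 0.25 and -0.10 in cerebral day 7 arrays, against 1.18, 0.64, 1.34 and 0.89 in cerebral controls. It was lower without overlap, by 1.01 (SE 0.15, adjusted p = 0.000678).

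Rims1 had -0.20, -0.08, 0.01 and -0.02 in cerebral day 7 arrays, against 1.05, 0.65, 1.10 and 0.83 in cerebral controls. The closely grouped injured arrays lay below all controls, with a difference of -0.98 ± 0.16 (adjusted p = 0.00185). Cacna1a had -0.18, -0.59, -0.38 and -0.56 in cerebral day 7 arrays, against 0.63, 0.14, 0.53 and 0.44 in cerebral controls, again without overlap and with a difference of -0.86 ± 0.13 (adjusted p = 0.00276). Pclo fell by 0.74 and Cplx2 by 0.66, and both lost their call in 6 or 7 of 8 fits without 1 array.

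Direction at cerebral day 7 depended on the offset: in the values as deposited, 8 genes were higher and 6 lower, and Cacna1a did not pass, while with the offset taken as exact 2 were higher and 15 lower. Syt2 and Sv2c, whose probes had the widest bounds, had positive differences of 1.04 ± 0.16 and 0.91 ± 0.23 that did not pass. With cerebral control replicates 1 and 2 alone, 2 of the 6 genes were called. At this time 4 of 9 genes of thalamus and subcortical neurons were higher and 3 of 7 genes of cortical excitatory neurons lower, and 4 of 6 fibroblast genes were higher. Macrophage genes were higher in 4 of 9 (1.48 to 1.84 in cerebral day 7 arrays, -0.51 to -0.39 in cerebral controls), microglia genes in 5 of 9 (1.19 to 1.44, against -0.28 to -0.21) and astrocyte genes in 3 of 10, and their part in the result was not tested. Between cerebral day 7 and day 1 only Dnm1 was called, at -1.15 ± 0.16 (adjusted p = 0.00108), where 0.441% of all genes were lower and 0.677% higher (1.12% in all). All 4 day 7 arrays lay below all day 1 arrays for 20 of 44 genes and 12.6% of all genes, and above for 2 of 44 and 11.9%. Dnm1 had -0.80, -0.65, -0.75 and -0.47 in cerebral day 7 arrays and 0.49, 0.35, 0.77 and 0.33 in cerebral day 1 arrays, and controls lay between them. Quantile normalisation gave 8 lower and 1 higher.

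The change from control in the spinal cord minus that in the cerebrum, in which the offset between parts drops out, tests the difference between the 2 changes. Tissue, injury and any batch cannot be told apart in this difference. At day 7 it was below 0 and called in 34 of 44 genes (77.3%) and above 0 and called in 0, where 14.6% of all genes were called lower and 13% higher (27.6% in all). The median was -1.0. Syt1 gave the largest value, -1.87 ± 0.23 (adjusted p = 4.42e-07), with a spinal change of -2.36 and a cerebral change of -0.49. Unc13c had -1.30, -1.57, -1.06 and -0.90 in spinal day 7 arrays, against 0.64, 0.27, 0.93 and 0.78 in spinal controls, and in the cerebrum it had -0.50, -0.65, -0.69 and -0.53 in cerebral day 7 arrays, against -0.08, -0.15, -1.11 and -1.03 in cerebral controls. The spinal groups were apart and the cerebral groups overlapped. The difference between the 2 changes was -1.86 ± 0.27 (adjusted p = 4.03e-06).

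Syt2 reached -1.75 ± 0.22 (adjusted p = 5.24e-07). Its tissue means lay closer at day 7 (0.57 in spinal arrays and -0.09 in cerebral arrays) than in controls (1.28 and -1.13). At the middle of the offset range its changes in the 2 tissues had opposite signs. Both were smaller than the bound of 1.21 and neither was called, so the sign of each is not settled. With that offset Syt2 had 0.20, 0.01, -0.42 and -0.15 in cerebral day 7 arrays, against -1.43, -0.82, -1.29 and -0.99 in cerebral controls. Cplx1 had -1.02, -1.75, -0.97 and -1.0 in spinal day 7 arrays, against 0.72, 0.46, 0.57 and 0.71 in spinal controls, while its cerebral day 7 arrays (-0.12, -0.04, -0.25 and 0.01) overlapped the cerebral controls, with replicate 3 below all of them. The difference was -1.71 ± 0.17 (adjusted p = 1.57e-08). The 10 genes not called at day 7 were Tubb3, Celf4, Uchl1, Stx1a, Sv2b, Bsn, Unc13a, Erc2, Cacna1a and Sncg, of which Stx1a (0.46 ± 0.26), Cacna1a (0.17 ± 0.19) and Celf4 (0.02 ± 0.22) had positive values. Quantile normalisation, which narrows the wider spinal arrays, gave 16 lower and 6 higher with a median of -0.36, and the sign turned for Cplx2, Rims1, Rims2 and Pclo.

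At day 3 the same test called 7 of 44 genes lower (15.9%) and 1 higher, where 5.19% of all genes were lower and 4.08% higher (9.27% in all). Vamp1 led with -1.28 ± 0.23 (adjusted p = 0.000641). It had 0.45, 0.38, 0.32 and 0.40 in spinal day 3 arrays, against 1.29, 0.81, 0.99 and 0.83 in spinal controls, and -0.82, -1.42, -0.98 and -0.97 in cerebral day 3 arrays, against -1.61, -1.31, -1.98 and -2.03 in cerebral controls. With the rebuilt offset, spinal values were lower and cerebral values mostly higher than their controls, but neither change was called. Syt2 followed with -1.09 ± 0.22, and Amph with -0.71 ± 0.18. Amph had -0.92, -0.38, -0.80 and -0.83 in spinal day 3 arrays, against -0.20, -0.19, 0.08 and -0.02 in spinal controls, and 0.09, 0.20, 0.20 and 0.23 in cerebral day 3 arrays, against 0.09, 0.11, 0.27 and 0.02 in cerebral controls, so the cord arrays were all lower and the cerebral arrays lay among their controls.

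Cacna1a was the 1 positive call at day 3, 0.68 ± 0.19 (adjusted p = 0.0200). It had -0.25, -0.21, -0.19 and -0.63 in spinal day 3 arrays, against -0.54, -0.88, -0.66 and -0.40 in spinal controls, and -0.07, 0.09, 0.09 and 0.11 in cerebral day 3 arrays, against 0.63, 0.14, 0.53 and 0.44 in cerebral controls. With the rebuilt offset, the cord arrays were mostly higher and the cerebral arrays all lower than their controls, but neither change was called. The other calls were Syn2, Elavl3, Nsf and Syt11, by -0.64 to -0.53, and Syn2 and Elavl3 were lost in 11 and 5 of the 16 fits without 1 array. Without spinal day 3 replicate 2, 13 genes were called, and against spinal controls 1 and 3 alone also 13. Quantile normalisation gave 7 lower and 4 higher, and scaling to the 75th percentile 12 lower and 1 higher.

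At day 1, 4 genes were lower (9.09%) and 3 higher (6.82%), where 6.58% and 4.70% of all genes were (11.3% in all), so neither share was far from that of all genes. Vamp1 had 0.84, 0.77, 0.83 and 1.03 in spinal day 1 arrays, overlapping its spinal controls, while its cerebral arrays were all higher than their controls. The difference between the changes was -0.96 ± 0.23 (adjusted p = 0.00673). Syt2 had 0.87, 0.50, 1.09 and 0.95 in spinal day 1 arrays, against 1.48, 1.20, 1.31 and 1.14 in spinal controls, and -0.68, -0.87, -0.50 and -0.68 in cerebral day 1 arrays, against -1.43, -0.82, -1.29 and -0.99 in cerebral controls. Lower in the cord and mostly higher in the cerebrum, it gave -0.88 ± 0.22 (adjusted p = 0.00936).

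Erc2 gave the largest positive value at day 1, 0.72 ± 0.17 (adjusted p = 0.00614). It had -0.20, -0.24, -0.72 and -0.44 in spinal day 1 arrays, against -0.55, -0.67, -0.64 and -0.63 in spinal controls, and 0.23, 0.25, 0.20 and 0.44 in cerebral day 1 arrays, against 0.69, 0.75, 0.97 and 0.69 in cerebral controls. All 4 cerebral arrays were lower and 3 of 4 spinal arrays higher than their controls. Nsf gave -0.60 ± 0.17 (adjusted p = 0.0197), with -0.36, -0.04, -0.30 and -0.38 in spinal day 1 arrays, against 0.03, 0.0045, 0.03 and -0.0045 in spinal controls, and 0.33, 0.35, 0.17 and 0.10 in cerebral day 1 arrays, against -0.28, -0.02, -0.10 and 0.10 in cerebral controls. Its spinal arrays were all lower and its cerebral arrays all higher than their controls. Cplx2 (0.57), Cacna1a (0.57) and Syt11 (-0.43) were also called, and each was lost in 8 to 13 of the 16 fits without 1 array. Among the arrays whose removal left 4 calls were cerebral control replicate 3, cerebral control replicate 4 and cerebral day 1 replicate 1, and scaling to the 75th percentile gave 6 lower and 1 higher.

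In controls the 2 tissues differed in most of these genes. In spinal against cerebral controls, 22 of 44 genes were lower and 9 higher (20.5%), where 17.6% of all genes were lower and 17.2% higher (34.8% in all), and the median difference was -0.35. All 4 spinal arrays lay below all cerebral arrays for 22 of 44 genes and 15.7% of all genes, and above for 10 of 44 and 15.8%. Injured groups compared across tissues at the same time gave 28 lower and 7 higher at day 1 (18.7% and 17.3% of all genes, 36.1% in all), 28 lower and 5 higher at day 3 (18.9% and 18.8%, 37.7% in all), and 38 lower and 5 higher at day 7 (24.3% and 22.8%, 47.1% in all). At day 1 the spinal arrays all lay below the cerebral ones for 25 of 44 genes and 18.1% of all genes, and above for 8 of 44 and 17.0%. At day 3 they lay below for 26 of 44 (16.4%) and above for 5 (15.1%), and at day 7 below for 37 (23.9%) and above for 4 (22.8%). These comparisons share arrays with those above.

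Families divided between the tissues in opposite directions. Of the SV2 proteins, Sv2c had 1.01, 1.78, 1.12 and 1.47 in spinal controls, against -1.22, -1.19, -2.04 and -1.72 in cerebral controls, a difference of 2.89 ± 0.23 (adjusted p = 6.23e-12), or 7.40-fold. Sv2b had -1.56, -1.35, -1.99 and -1.38 in spinal controls, against 1.06, 1.13, 1.54 and 1.52 in cerebral controls, a difference of -2.88 ± 0.19 (adjusted p = 7.22e-14). The 2 genes were thus about equally far apart with opposite sign, and Sv2a, the ubiquitous member, differed by 0.23 ± 0.15 and did not pass.

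The same held for the fast calcium sensors. Syt2 was 2.41 ± 0.16 higher in spinal controls and Syt1 lower, with a difference of -1.99 ± 0.16 and no overlap of arrays for either. Of the vesicle SNAREs, Vamp1 was 2.72 ± 0.16 higher in spinal controls and Vamp2 was lower (difference -0.49 ± 0.10). Of the complexins, Cplx1 was 0.63 ± 0.12 higher and Cplx2 lower (difference -2.02 ± 0.13). Of the Munc13 proteins, Unc13c was 1.25 ± 0.19 higher and Unc13a lower, with a difference of -1.59 ± 0.15. The synapsins shared a direction, at -1.33 ± 0.17 for Syn1 and -1.02 ± 0.14 for Syn2.

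Stx1a had -0.75, -1.10, -1.11 and -1.11 in spinal controls, against 1.69, 1.41, 2.43 and 1.73 in cerebral controls, a difference of -2.83 ± 0.18 (adjusted p = 5.23e-14). Celf4 was also much lower in the cord, at -2.64 ± 0.16. The largest difference of all was that of Sncg, which had 1.25, 3.92, 1.07 and 3.53 in spinal controls, against -1.86, -1.57, -2.89 and -2.30 in cerebral controls. All spinal arrays were higher, by 4.60 ± 0.50 (adjusted p = 7.39e-09), but they formed a low and a high pair, and the high pair, replicates 2 and 4, was also the pair with high sensory root neuron genes (3.93 and 3.07, against 0.05 and 0.04). Against the low pair alone, an alternative added after the values were seen, the difference was 3.32 and still called. Sncb differed by 0.09 ± 0.15 and did not pass.

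**Figure D5:**
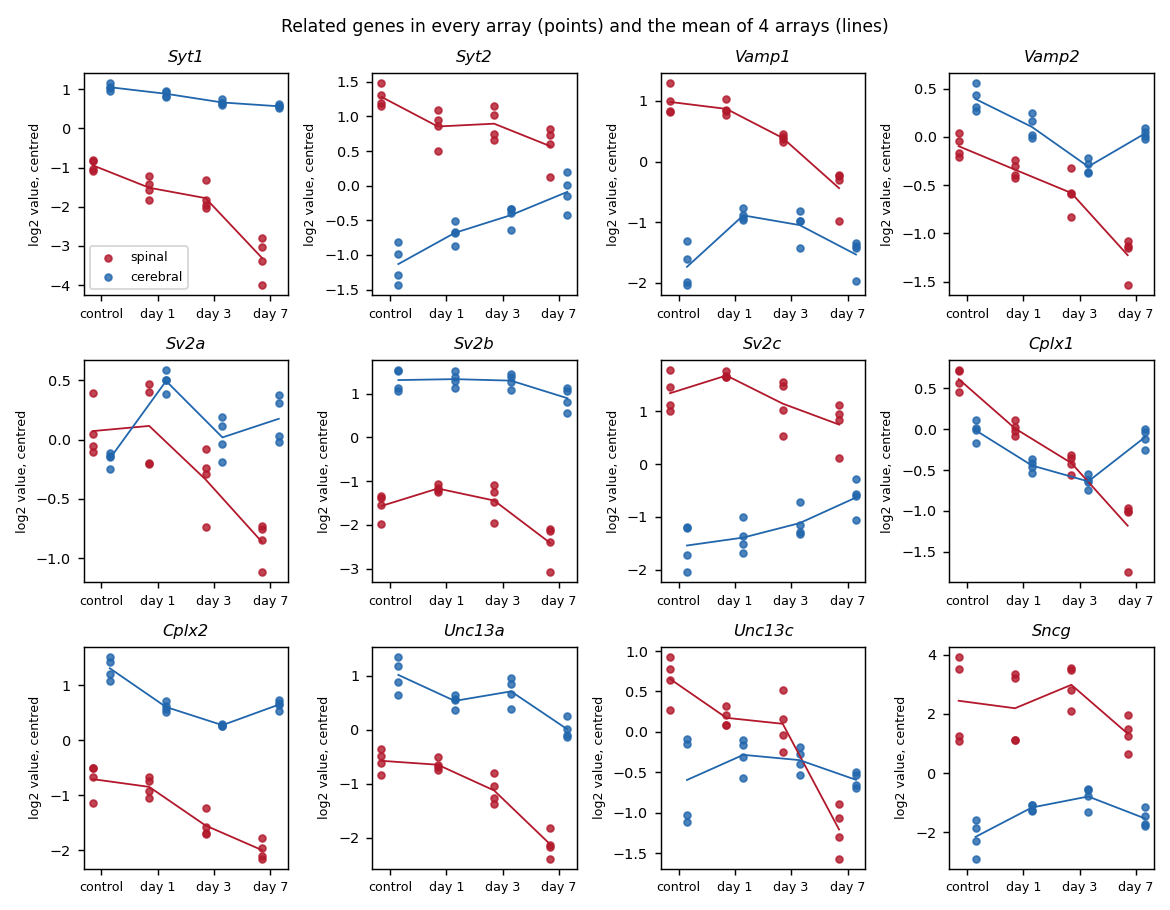
Centred log2 values of 12 genes from divided families in every array (points) and mean of 4 arrays (lines), from control to day 7, in spinal cord (red) and cerebrum (blue). Syt2, Vamp1, Sv2c and Sncg lie higher in the cord and Syt1, Sv2b, Cplx2 and Unc13a higher in the cerebrum at control, and Cplx1 and Unc13c cross between tissues by day 7.

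Genes of the same kind outside the 44 were read from 2 further lists, which were also chosen with earlier results of these data known. Of 46 other presynaptic genes, 32 were lower and 1 higher at spinal day 7, with a median of -0.95, and of 22 other pan-neuronal genes 19 were lower and 0 higher, with a median of -1.0. Of all genes, 12.9% were lower and 13.1% higher in that comparison. Among the pan-neuronal genes the largest falls were those of Gng3 (2.05), a G protein subunit of neurons, Scg5 (1.85), a chaperone of neuropeptide processing, Chgb (1.73), a granin of dense-core vesicles, and Kif5a (1.67), a motor of axonal transport. Among presynaptic genes they were Syt9 (1.79), Syn3 (1.74), Rab27b (1.64) and Cacnb4 (1.56). The 1 gene that rose was Syngr1, a vesicle protein of the synaptophysin family, which had 2.25, 2.17, 1.76 and 1.75 in spinal day 7 arrays, against -0.16, -0.23, -0.29 and -0.20 in spinal controls (difference 2.20 ± 0.20, adjusted p = 1.16e-09).

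The earlier spinal times gave 14 lower and 0 higher of 46 and 8 lower and 1 higher of 22 at day 3, and 11 lower and 6 higher of 46 and 6 lower and 0 higher of 22 at day 1. Of all genes, 7.93% were lower and 9.28% higher at day 3, and 16.1% were lower and 15.8% higher at day 1, so the share of the 46 that was higher at day 1 was not above that of all genes. The gene that rose at spinal day 3 was Gap43, the growth cone protein, at 0.60 ± 0.10. In the cerebrum these lists gave 2 lower of 46 and 1 lower of 22 at day 7, with none higher, where Cacna2d3 and Cacna2d1, auxiliary calcium channel subunits, fell by 0.85 and 0.66 and Celf5 by 0.84. At cerebral day 3 the counts were 4 lower of 46 and 2 lower of 22 with none higher, and at cerebral day 1 they were 6 lower and 2 higher of 46 and 3 lower of 22. Of all genes, 1.03% were lower at cerebral day 7, 2.08% at day 3 and 8.22% at day 1, and 8.91% were higher at day 1. The neurofilament genes Nefm, Nefh and Nefl were 2.82, 2.69 and 1.36 higher in spinal than in cerebral controls, while Syt17 (-3.79), Celf5 (-2.53), Camk2b (-2.19) and Syt16 (-2.02) were lower.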

How the data were processed

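RNA from spinal cord and cerebrum was biotin-labelled from 10 ng of total RNA and hybridised to 1-colour arrays, per the labels' protocols. The deposited table holds 22206 probes by 32 arrays of signed values that the authors had centred per probe, and the log2 scale is inferred from those deposited values, between -5.58 and 8.04. Background correction, summarisation and genome build were not given in the sources used here. Of the probes, 19572 had 1 symbol, 2634 had none and 0 had several. Probes of one gene were averaged (55 genes), which left 19505 genes.

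Controls and day 1 arrays had a common median of 0 in 100% of probes. Day 3 and day 7 arrays had been centred apart: a centre shared with the 8 controls matched 86.8% of 5646 probes that could be tested at day 3, and 86.4% of 5147 at day 7, within a tolerance of 1e-06. With day 1 arrays in the place of the controls, 69.3% matched at day 3 and 70.2% at day 7. With the arrays of the other late day these were 68.7% and 69.8%. The offset was a single value in 77.9% and 80.0% of probes and a range in the others. The bound of each gene was the distance from the middle of that range to its end plus an allowance, the largest shortfall seen, of 0.196 at day 3 and 0.262 at day 7.

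limma 3.58.1 in R 4.3.3 fitted 8 group means to all genes at once, with 15 comparisons and Benjamini-Hochberg adjustment at 0.05. The script was tested on simulated data. Python 3.11.15 was used for summaries and figures. Arrays are numbered within groups in accession order, and 4 arrays per group limit the precision.

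The 44 genes, the lists of other neuronal genes, the marker lists and the tests were chosen with earlier results of these data known. Any of the 44 could be named. Values in every array were given for up to 4 called genes with the largest difference in a comparison and for members of divided families, and up to 4 genes in each direction were named from the other neuronal lists. Promoter windows are from RefSeq. Alternatives were quantile normalisation, scaling to the 75th percentile, array weights, the most variable probe per gene, other treatments of the offset, pairs of controls and leaving out each array.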

Additional observations from a re-analysis of the deposited data

Results flagged for a closer look

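Single arrays stood apart from the other 3 of their group in 21 of 352 groups of 4 arrays tested, and chance alone flags about 1 in 20 groups. In spinal day 7 replicate 2 this was so for Snap25 (-2.11), Vamp1 (-0.99), Vamp2 (-1.54), Cplx1 (-1.75) and Syp (-2.12), all lower than in the other 3 arrays. In spinal day 1 arrays, Rbfox3 stood apart in replicate 3 (-1.52), Syp (-0.13) and Dnm1 (0.0405) in replicate 4, Sv2c in replicate 1 (1.76) and Cacna1a in replicate 2 (-0.56). In spinal day 3 replicate 4 it was Napb (-0.85) and Cacna1a (-0.63), and in spinal control replicate 1 Stx1a (-0.75). In cerebral day 1 replicate 3 it was Uchl1 (0.17) and Syn1 (0.85), and in cerebral day 3 replicate 1 Cacna1a (-0.0734). In cerebral day 7 arrays it was Vamp1 in replicate 3 (-1.97), Rab3c in replicate 4 (0.78) and Pclo in replicate 2 (-0.10), and in cerebral controls Tubb3 in replicate 4 (-1.03) and Sncb in replicate 2 (-0.0326).

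The change from control differed between spinal cord and cerebrum in 7 genes at day 1, 8 at day 3 and 34 at day 7, each by a test of the difference itself, given here as log2 spinal change minus cerebral change. At day 1 these were Vamp1 (-0.96), Cplx2 (0.57), Nsf (-0.60), Syt2 (-0.88), Syt11 (-0.43), Erc2 (0.72) and Cacna1a (0.57). At day 3 they were Elavl3 (-0.64), Vamp1 (-1.28), Nsf (-0.63), Syt2 (-1.09), Syt11 (-0.53), Syn2 (-0.64), Cacna1a (0.68) and Amph (-0.71). At day 7 the pan-neuronal genes were Rbfox3 (-1.61), Map2 (-0.65), Elavl3 (-0.68), Elavl4 (-1.5), Eno2 (-0.67) and Thy1 (-1.56), and the SNARE, complexin and recycling genes were Snap25 (-1.15), Vamp1 (-1.62), Vamp2 (-0.77), Cplx1 (-1.71), Cplx2 (-0.63), Nsf (-1.17) and Napb (-0.82). The synaptotagmins at day 7 were Syt1 (-1.87), Syt2 (-1.75), Syt4 (-0.81) and Syt11 (-0.66), and the vesicle genes were Syn1 (-1.09), Syn2 (-1.0), Syp (-1.01), Sv2a (-1.27), Sv2c (-1.51), Rab3a (-1.15) and Rab3c (-1.5). The active zone genes were Rims1 (-0.96), Rims2 (-0.66), Pclo (-1.17) and Unc13c (-1.86), the channel and neurexin genes Cacna1b (-1.57) and Nrxn3 (-0.96), the endocytic genes Dnm1 (-1.01), Amph (-1.22) and Synj1 (-0.81), and the remaining gene was Sncb (-1.5).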

How the results depend on the processing

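Of 315 called gene differences, the alternatives gave 4715 values with the same direction and call, 380 that lost the call and 8 that turned, all 8 under quantile normalisation. Those were Syt2 at cerebral day 1 (-0.0134), Sv2b at spinal day 7 (0.0572), the spinal minus cerebral change at day 7 of Cplx2 (0.49), Rims1 (0.24), Rims2 (0.0940) and Pclo (0.0199), and spinal against cerebral day 7 for Elavl3 (0.0367) and Unc13c (0.0728). The cause was not tested. Counts of the 44 genes called that moved by over 1.5 times were as follows. Quantile normalisation gave 12 at cerebral day 3 (5 in the reported fit), 7 at spinal day 3 (15), 22 for the spinal minus cerebral change at day 7 (34), 9 for cerebral day 7 against day 1 (1) and 9 for spinal day 7 against day 1 (38). Values as deposited gave 14 at cerebral day 3, 14 at cerebral day 7 (6), 24 at spinal day 3 and 2 for cerebral day 7 against day 1. The offset taken as exact gave 18, 17, 30 and 14 in the same order. An allowance at the 99th percentile, added after seeing the data, gave 8 at cerebral day 3 and 4 for cerebral day 7 against day 1, where array weights gave 3. With cerebral controls 1 and 2 only there were 6 at cerebral day 1 (13), 2 at cerebral day 3, 2 at cerebral day 7, and 3 and 5 for the spinal minus cerebral change at day 1 (7) and day 3 (8). With spinal controls 1 and 2 only there were 6 at spinal day 1 (11), 9 at spinal day 3, and 4 and 3 for these changes. The change at day 3 gave 13 with scaling to the 75th percentile and 13 with spinal controls 1 and 3 only, which was added after seeing the data. Leaving out each array gave 2 to 5 at cerebral day 3, 4 to 8 for the change at day 1 and 6 to 13 for that at day 3. At spinal day 7 it gave 32 to 36. No paired analysis was possible because replicate numbers follow accession order and pair no samples. Probes with a wide offset range, such as those of Syt2 and Sv2c, limit what day 3 and day 7 can show.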

Other observations

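Syngr1, a vesicle protein of the synaptophysin family, was the 1 gene of 46 other presynaptic genes that was higher at spinal day 7, by 2.20 ± 0.20 (test against the bound, adjusted p = 1.16e-09). It had not differed at spinal day 3 beyond its error (0.11 ± 0.20) and differed by -0.35 ± 0.20 at spinal day 1, neither of which was called. In the cerebrum it had 1.19, 1.18, 1.07 and 1.00 in day 7 arrays, against 0.16, 0.37, 0.53 and 0.56 in controls, a difference of 0.71 ± 0.20 that did not pass (adjusted p = 0.235). The spinal change exceeded the cerebral one by 1.5 ± 0.28 (adjusted p = 0.000151).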
